A study of Danio rerio with 15 samples.

Results

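The comparison described here was the last step of a regeneration time course, from 24 to 36 hours post-lesion (hpl), in Müller glia of the zebrafish retina. It used the 3 arrays of Müller glia taken at 24 hpl and the 3 taken at 36 hpl, which are 6 of the 15 arrays of the series. All fish were 5- to 6-month old and carried the transgene Tg(gfap:GFP)mi2002, in which the gfap promoter drives green fluorescent protein (GFP) in Müller glia. Both groups received the light lesion that kills photoreceptors, and by their labels they differ in the time at which GFP-positive cells were collected by flow cytometry. The labels do not say whether the groups shared a day of sorting or of array processing. The other groups were 8 hpl, 16 hpl and 0 hpl (unlesioned), each with 3 biological replicates, and they entered the fit for its estimate of spread. The sort takes every GFP-positive cell, dividing or not, so a value is an average over the cells collected. In such bulk samples a larger share of cells in a phase and more RNA per cell cannot be told apart.

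Müller glia are the radial glia of the retina, and in zebrafish they can return to the cell cycle after photoreceptors die and give rise to neuronal progenitors. A cell that divides first licenses its replication origins and copies its DNA in S phase, which needs the MCM helicase, polymerases, their sliding clamp and a supply of deoxynucleotides. It then condenses its chromosomes, builds a spindle and separates the copies in mitosis, under control of cyclin-dependent kinase 1, polo-like and Aurora kinases, and a checkpoint that holds anaphase until every kinetochore is attached. Many mitotic transcripts accumulate in G2 and M phase, after those of S phase.

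Of the 15502 probe sets tested, 482 (3.11%) were higher and 315 (2.03%) lower at 36 hpl than at 24 hpl at a Benjamini-Hochberg adjusted p under 0.05 in limma. At least a 2-fold change was seen for 231 of the higher and 46 of the lower ones. The median change over all probe sets was -0.05 on the log2 scale, and 793 of the 797 called probe sets had 3 arrays at 36 hpl wholly outside the range of those at 24 hpl. Over all probe sets 11.1% lay wholly above that range and 14.5% wholly below it. A call in limma favours separate groups, so the 793 are not separate support for the calls. Higher calls made up 60.5% of all calls with the deposited values and 92.8% when arrays were scaled on the hybridisation controls, which moved the median to 0.15. The direction of small changes therefore depended on the scaling. The count of higher probe sets was 278 without replicate 2 at 24 hpl and 300 without replicate 2 at 36 hpl. The count of lower ones was 122 without replicate 1 and 67 without replicate 2 at 24 hpl, and 58 without replicate 2 at 36 hpl.

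Gene names were available for 2331 genes, of which 241 (10.3%) were called higher and 106 (4.55%) lower, with a median change of 0.05. These genes were named in the authors' deposited table, whose probe sets changed at least 2-fold against 0 hpl at some time. A gene that kept to its unlesioned level until 24 hpl could thus be named only through its level at 36 hpl, and counts over named genes describe those genes without showing that a list stands apart. Of the 797 called probe sets, 424 had no single symbol and are not described.

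Transcripts of the mitotic machinery rose in this step. Of 71 named genes in 5 mitosis lists, 57 were called higher and 1 lower, with a median change of 1.44 log2 units. In 62 of the 71 the 3 arrays at 36 hpl lay wholly above the 3 at 24 hpl, as they did in 22.7% of all named genes and 11.1% of all probe sets. In the preceding step from 16 to 24 hpl 1 of the 71 was called higher and none lower in limma (14 and 0 at an unadjusted p under 0.05), where 1.24% of named genes were called higher and 1.07% lower. Over all probe sets 0.29% were called higher and 0.271% lower in that step. Both steps share the arrays at 24 hpl. Of the 71 genes, 54 were at least 2-fold from 0 hpl at 36 hpl alone and so owe their name to the later time. Among the other 17, which were 2-fold from 0 hpl at 8, 16 or 24 hpl, 6 were called higher in the step, and among the 1889 named genes of that kind 69 were.

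Many mitotic genes started low. For 35 of the 71 the mean at 24 hpl lay below the mean of the array medians at 24 hpl, 4.57, and 4 stayed below it at 36 hpl. The deposited values come with no detection call, and a level under the array median is not shown to exceed background. A fold is given below only where the lower group mean is above 4.57, and elsewhere the change is in log2 units.

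Among the mitotic kinases, cyclins and phosphatases 14 of 16 named genes rose. The cyclin-dependent kinase cdk1, which drives entry into mitosis, read 5.76, 5.69 and 5.73 at 24 hpl and 8.60, 8.91 and 8.88 at 36 hpl (log2 RMA values of replicates 1, 2 and 3). Every array at 36 hpl was far above every array at 24 hpl, and the rise was 8.42-fold (log2 change 3.07 ± 0.17, SE of the fit with 3 arrays per group, adjusted p = 1.89e-08). Its partner cyclin ccnb1 read 5.47, 5.70 and 5.38 and then 7.13, 7.25 and 7.03, a 3.07-fold rise (1.62 ± 0.17, adjusted p = 1.99e-05) with no overlap. The levels of cdk1 and ccnb1 at 24 hpl were near those of unlesioned glia, whose means were 5.83 and 5.88.

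The largest rise of any gene the naming rule covers was that of ccnf, cyclin F, a substrate receptor of an SCF ubiquitin ligase. It read 5.40, 5.00 and 5.65 at 24 hpl and 9.60, 9.74 and 9.29 at 36 hpl, an 18.3-fold difference (4.19 ± 0.30, adjusted p = 1.77e-07). The polo-like kinase plk1, which acts at centrosomes, kinetochores and the midbody, read 3.83, 3.67 and 3.21 and then 7.33, 7.51 and 7.28 (3.80 ± 0.18, adjusted p = 6.9e-09). The checkpoint kinase ttk (Mps1) read 3.53, 3.46 and 3.75 and then 6.90, 6.66 and 6.84 (3.22 ± 0.15, adjusted p = 6.9e-09). For all of ccnf, plk1 and ttk the 3 arrays of a time lay close together and the groups were widely apart. The plot of 12 genes by time shows these values beside the earlier times.

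**Figure D1:**
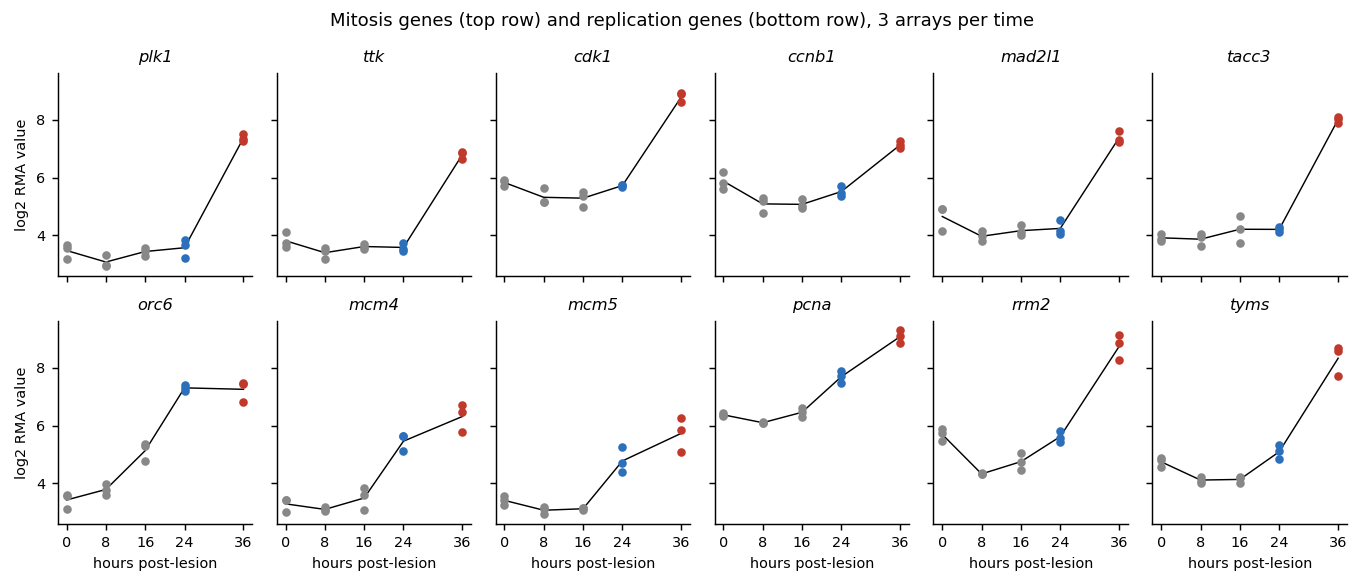
Log2 RMA values of 6 mitosis genes (top) and 6 replication genes (bottom) on all 15 arrays against hours post-lesion. Points are arrays, blue at 24 hpl and red at 36 hpl, and lines join group means. The means of the mitosis genes were higher at 36 hpl than at any earlier time, while orc6, mcm4, mcm5 and pcna were already above 0 hpl at 24 hpl.

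Other members of this list rose by less. Cyclin A (ccna2) rose by 2.39 ± 0.15 log2 units (adjusted p = 7.35e-08), and the Aurora kinase of the chromosomal passenger complex, aurkb, by 2.05 ± 0.19 (adjusted p = 4.72e-06). The phosphatase cdc25b, which activates cyclin-dependent kinases, was already bright at 24 hpl (8.78, 8.43 and 8.68) and rose 4.99-fold to 11.24, 10.97 and 10.63 (adjusted p = 1.77e-07). Both probe sets named cdc25b rose; the authors' table titles them only Cdc25, and the symbol was not checked against probe sequences. The related kinase aurka, which acts at spindle poles, did not pass the test: it read 5.85, 5.95 and 5.64 at 24 hpl and 6.24, 6.14 and 6.49 at 36 hpl (0.48 ± 0.16, adjusted p = 0.0915), with no overlap. The member that fell was wee2, of a family of inhibitory kinases of Cdk1 and named here although it lies outside the naming rule, from 4.71, 4.76 and 4.89 to 4.21, 3.15 and 4.23 (-0.92 ± 0.23, adjusted p = 0.0307). Its call was lost with hybridisation-control scaling (adjusted p = 0.0934), without any 1 array at 24 hpl and without replicate 2 at 36 hpl (up to 0.101).

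All 4 named genes of the spindle checkpoint and the anaphase-promoting complex rose, with a median change of 2.29. The checkpoint protein mad2l1, which holds Cdc20 inactive, read 4.14, 4.06 and 4.52 at 24 hpl and 7.22, 7.63 and 7.31 at 36 hpl (3.15 ± 0.20, adjusted p = 7.9e-08). Its target cdc20, the activator of the anaphase-promoting complex, read 3.59, 3.42 and 3.41 and then 6.82, 6.61 and 5.94 (2.98 ± 0.21, adjusted p = 1.51e-07). The groups did not overlap for either gene, and replicate 3 at 36 hpl was the lowest of its group for cdc20. The other 2 were ube2s, the enzyme that extends ubiquitin chains for this complex (1.59 ± 0.17), and zwilch, of the RZZ complex at kinetochores (1.52 ± 0.15).

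All 8 named genes of the centromere and kinetochore list rose, with a median of 1.93. They include 2 subunits of the chromosomal passenger complex, cdca8 (borealin), which read 3.37, 3.24 and 2.95 and then 5.63, 5.74 and 5.98 (2.60 ± 0.15, adjusted p = 3.53e-08), and birc5a (survivin), with a change of 2.54 ± 0.25 (adjusted p = 9.52e-06). They also include 3 subunits of the Ndc80 complex, which binds microtubules. These rose by 1.92 ± 0.15 (ndc80), 1.94 ± 0.26 (nuf2) and 2.26 ± 0.15 (spc24). At 24 hpl the mean change of this list's genes from 0 hpl had a median of 0.01. None was called against 0 hpl in limma in either direction, also at an unadjusted p under 0.05, while at 36 hpl all 8 were called higher. All 8 were at least 2-fold from 0 hpl at 36 hpl alone and owe their name to that time. This contrast between the times was thus largely set by the naming.

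Of 28 named genes for spindle motors, spindle assembly and cytokinesis 20 rose. The spindle pole protein tacc3, which stabilises microtubules, read 4.21, 4.13 and 4.28 at 24 hpl and 7.89, 8.04 and 8.11 at 36 hpl (3.81 ± 0.19, adjusted p = 7.8e-09). The spindle protein aspm, known in human for its role in brain size, rose by 3.29 ± 0.21 (adjusted p = 7.35e-08) and the importin kpna2 rose 8.03-fold, from 5.73, 5.48 and 5.71 to 8.53, 8.78 and 8.62. Genes of the cleavage furrow and the midzone rose as well, with ect2, the exchange factor for RhoA, up by 2.53 ± 0.15 (adjusted p = 3.53e-08). In each of these 4 genes every array at 36 hpl was above every array at 24 hpl. The 8 members that did not pass were kif15, tubg1, tuba8l4, tuba1b, rcc1, mapre1a, ranbp1 and ran, with changes from -0.33 (rcc1) to 0.71 (kif15). These 8 were named after their values were seen. The tubulin genes tubb2b and tubb5 of the same list were called higher (1.39 and 1.23).

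The gene rtkn2 (rhotekin 2), outside these lists, had the second largest rise by the naming rule. It read 4.29, 3.82 and 4.73 at 24 hpl and 8.44, 8.04 and 8.02 at 36 hpl (3.89 ± 0.25, adjusted p = 8.15e-08).

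Of 16 named genes for chromosome condensation, cohesion and the nuclear envelope 12 rose. Topoisomerase top2a, which untangles sister chromatids, read 4.19, 4.19 and 4.22 and then 6.32, 6.42 and 6.30 (2.15 ± 0.14, adjusted p = 1.1e-07), among the tightest groups of the comparison. The condensin subunits ncapg, ncaph and ncapd3 rose by 1.74 ± 0.19, 1.47 ± 0.21 and 1.36 ± 0.19. Against 0 hpl, 6 of these 16 genes and 11 of the 28 spindle genes were already higher at 24 hpl. None of the mitotic kinase, checkpoint or kinetochore genes was higher in limma (1 of these 28 at an unadjusted p under 0.05), and 2 kinase list genes were lower. Of the kinase genes 14 of 16, and all 4 checkpoint and 8 kinetochore genes, were 2-fold from 0 hpl at 36 hpl alone. In the condensation and spindle lists 11 of 16 and 18 of 28 were. The naming thus favours this difference between the lists. Against 0 hpl 16.3% of all probe sets and 55% of named genes were higher at 24 hpl, the latter having been chosen for such changes.

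The named genes of DNA replication rose less than those of mitosis, and more of them had risen by 24 hpl. Of 42 named genes in 3 replication lists, 20 were called higher and 1 lower, with a median change of 0.69. Among all named genes 10.3% were called higher and 4.55% lower. In the step from 16 to 24 hpl 9 of the 42 had been called higher, where 1.24% of named genes were. At 24 hpl 29 of the 42 were above 0 hpl, as were 16.3% of all probe sets and 55% of named genes. By 36 hpl 41 of the 42 were above 0 hpl, as were 19.9% of all probe sets and 60.1% of named genes. The plot of list courses shows the named replication genes leaving the unlesioned level before the named mitosis genes. Of the 42 replication genes, 25 were 2-fold from 0 hpl by 24 hpl and 17 at 36 hpl alone. For the 71 mitosis genes these counts were 17 and 54. A gene flat until 24 hpl is named only through 36 hpl, so the naming itself favours this order. The share of the order that the naming accounts for was not tested.

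**Figure D2:**
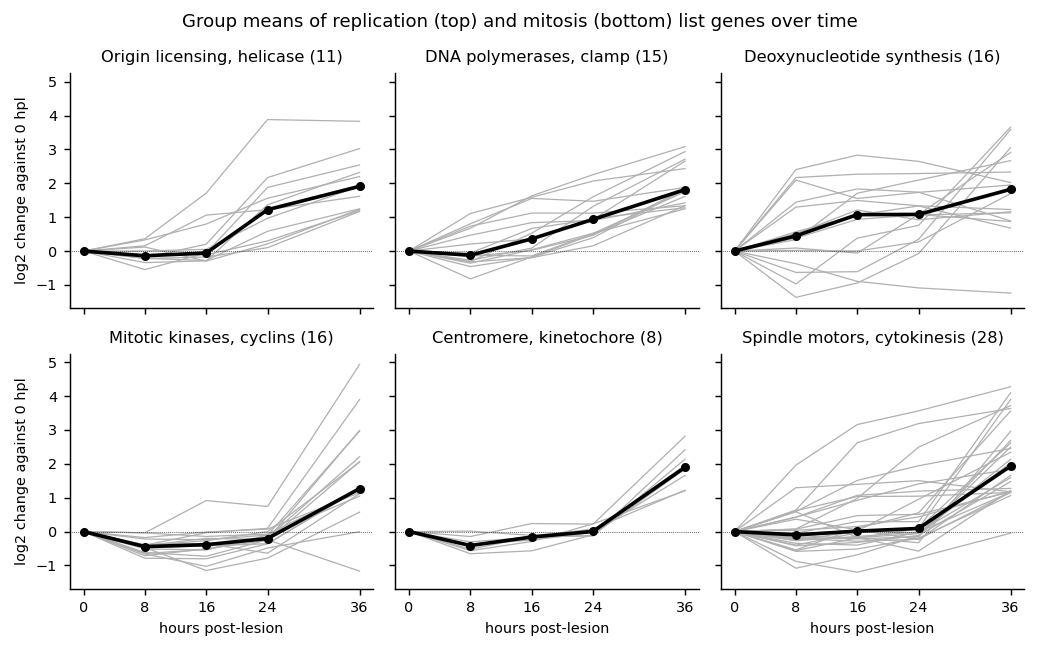
Change of each gene's group mean from its mean at 0 hpl, in log2 units, against hours post-lesion, for 3 replication lists (top) and 3 mitosis lists (bottom), with the number of named genes in brackets. Grey lines are genes and the black line is their median. The median of the licensing list was 1.22 at 24 hpl and 1.91 at 36 hpl, while that of the kinetochore list went from 0.01 to 1.9. All kinetochore genes shown were 2-fold from 0 hpl at 36 hpl alone, so the naming favours their flat course until 24 hpl.

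Some origin licensing and helicase genes had started earlier. Of 11 named genes 6 rose from 24 to 36 hpl, and 5 had risen from 16 to 24 hpl. The origin recognition subunit orc6 read 7.30, 7.21 and 7.41 at 24 hpl and 7.49, 7.46 and 6.83 at 36 hpl, so the groups overlapped (-0.05 ± 0.20, adjusted p = 0.92). Of its rise from a mean of 3.43 in unlesioned glia, 2.17 log2 units came between 16 and 24 hpl (adjusted p = 0.000241). The helicase subunit mcm4 read 5.65, 5.11 and 5.63 and then 6.70, 6.47 and 5.79, a change of 0.86 ± 0.24 (adjusted p = 0.0488) after 1.97 in the preceding step. Likewise mcm5 read 4.70, 4.38 and 5.25 and then 6.25, 5.86 and 5.10, with overlap (0.96 ± 0.25, adjusted p = 0.0339). The calls of mcm4 and mcm5 were lost without replicate 1 or 2 at either time, that of mcm4 also without replicate 3 at 24 hpl, with adjusted p up to 0.237 and 0.184. The origin recognition subunit orc4 and the GINS subunits gins2 and gins3, which join the helicase to active forks, rose by 0.94 ± 0.16, 0.89 ± 0.15 and 1.02 ± 0.17.

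Of 15 named polymerase, clamp and fork genes 8 rose, and all 15 changes were positive. The sliding clamp pcna read 7.88, 7.48 and 7.72 at 24 hpl and 9.12, 9.30 and 8.85 at 36 hpl, a 2.63-fold rise (1.39 ± 0.14, adjusted p = 1.41e-05) that came after 1.23 log2 units in the preceding step. The flap nuclease fen1, which trims Okazaki fragments, read 7.38, 6.75 and 7.50 and then 8.70, 9.19 and 8.91 (1.72 ± 0.19, adjusted p = 2.31e-05). The groups did not overlap for either gene. The single-strand binding subunits rpa2 and rpa3 rose by 1.12 ± 0.13 and 1.33 ± 0.22, and the primase subunit prim1 by 1.38 ± 0.20.

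The members of the deoxynucleotide list did not move together. Enzymes that commit nucleotides to DNA rose steeply: thymidylate synthase, tyms, read 5.32, 5.13 and 4.84 and then 8.58, 8.69 and 7.74, a 9.45-fold rise (adjusted p = 7.9e-08). The small subunit of ribonucleotide reductase, rrm2, read 5.82, 5.59 and 5.45 and then 9.13, 8.86 and 8.26, an 8.75-fold rise (adjusted p = 8.15e-08). The dUTPase dut, which keeps uracil out of DNA, rose 7.47-fold (2.90 ± 0.27, adjusted p = 3.79e-06). The log2 changes of these 3 enzymes were near that of cdk1, while the large reductase subunit rrm1 rose by 1.83 ± 0.19 and dihydrofolate reductase, dhfr, by 1.43 ± 0.19. By contrast cad, which starts pyrimidine synthesis from simple precursors, was lower (-0.63 ± 0.17, adjusted p = 0.0497), and a second probe set of it was not called (adjusted p = 0.24). The call of cad was lost with median centring (adjusted p = 0.0721), with hybridisation-control scaling (0.332) and without any 1 of the 6 arrays (up to 0.226). Of the 16 named genes of the list 6 rose, 1 fell and 9 were not called, and its median was 0.14.

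At 36 hpl replicate 3 read lower than the other 2 arrays for most replication genes. It held the lowest of the 3 values for 30 of the 42 genes (71.4%), for 38 of the 71 mitosis genes (53.5%) and for 30.3% of all named genes. The mean of the 42 replication genes was 6.86, 6.92 and 6.45 in replicates 1, 2 and 3 at 36 hpl, against 5.99, 5.81 and 6.04 at 24 hpl, and that of the mitosis genes was 7.04, 7.07 and 6.90 against 5.44, 5.40 and 5.47. The rod marker list had its highest mean in the same array, 6.77 against 6.27 and 6.08, and its part in these values was not tested. Without that array 24 replication genes and 58 mitosis genes were called higher. In other lists replicate 1 at 36 hpl was often the lowest. It was so for 29 of 34 respiratory chain genes (85.3%) and 47 of 74 cytosolic ribosomal protein genes (63.5%), against 31.6% of all named genes. The mean of the respiratory chain genes was 8.17, 8.51 and 8.56 in replicates 1, 2 and 3 at 36 hpl, against 8.16, 7.82 and 8.06 at 24 hpl.

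Regulators of the passage from G1 to S phase followed the later pattern in part. Of 11 named genes 6 rose, where 10.3% of all named genes did, and the 6 include cdc25b, which is on both lists. The Cdk-binding protein cks1b rose by 2.09 ± 0.17 (adjusted p = 1.12e-06), the SCF subunit skp2, which removes the Cdk inhibitor p27 in mammals, by 1.60 ± 0.22, and the transcription factor e2f5 by 1.53 ± 0.20. Cyclin D1, ccnd1, the cyclin that opens G1, read 10.49, 10.38 and 10.77 at 24 hpl and 10.78, 10.98 and 10.29 at 36 hpl, with overlap (0.14 ± 0.17, adjusted p = 0.701). It had risen by 1.1 between 16 and 24 hpl (adjusted p = 0.0065). Of 13 named genes in the list of histones, histone chaperones and DNA methylation 4 rose. Among them were the histone variant h2az2b (1.07 ± 0.15, adjusted p = 0.000482) and the helicase hells, which helps maintain DNA methylation (1.49 ± 0.25, adjusted p = 0.00203). The list does not hold all named genes of its kind. Outside it, dnmt3ba and dnmt3bb.3 rose and the nucleosome assembly gene nap1l4a fell, all named after their values were seen.

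Among genes of the housekeeping machinery, 4 of 74 cytosolic ribosomal protein genes were called higher, where 10.3% of named genes were. They were rpl27a, rps6, rps19 and rps2, with changes from 0.55 to 0.76. Of the 74 changes 73 were positive, and 44 genes lay wholly above their values at 24 hpl, as did 22.7% of named genes and 11.1% of all probe sets. The list's median of 0.36 compares with 0.05 for all named genes and stayed positive under every scaling tried, from 0.29 to 0.56. The 60 named ribosome biogenesis genes, which build the subunits in the nucleolus, had a median change of -0.29, and 51 of 60 changes were negative. Of these 60 genes 1 was called lower, wdr36 (-0.62 ± 0.17, adjusted p = 0.0432), where 4.55% of named genes were. Wholly below their values at 24 hpl lay 25, as did 18.9% of named genes and 14.5% of all probe sets. The median stayed negative under each scaling but shrank to -0.09 with the hybridisation controls. The calls of these 5 genes were each lost without replicate 2 at 24 hpl and without replicate 2 at 36 hpl. Those of all but rpl27a were also lost without 1 or more of the other 4 arrays. For the 4 ribosomal protein genes adjusted p rose to at most 0.168 in these fits. The call of wdr36 was lost with median centring and with hybridisation-control scaling as well (adjusted p = 0.271 with the latter).

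None of 35 proteasome genes and 27 splicing genes was called in limma (15 and 2 were higher and 0 lower at an unadjusted p under 0.05). Among all named genes 10.3% were called higher and 4.55% lower. Of 37 chaperone genes the cytosolic chaperone hsp90aa1.2 was higher (0.83 ± 0.18, adjusted p = 0.0124), and of 53 translation genes yars1, which loads tyrosine on its tRNA, and eif4e1b were lower (-0.68 ± 0.15 and -0.78 ± 0.19). The calls of these 3 were lost without replicate 2 at 24 hpl or replicate 2 at 36 hpl. Those of yars1 and eif4e1b were also lost without replicate 1 of either time, and that of eif4e1b without replicate 3 at 36 hpl. Adjusted p rose to 0.0733 for hsp90aa1.2 and 0.132 for eif4e1b in these fits. With hybridisation-control scaling the calls of yars1 (adjusted p = 0.155) and eif4e1b were lost. That of eif4e1b was also lost with median centring and when quantile normalisation was applied again. In the respiratory chain list cox5ab was higher (0.90 ± 0.14, adjusted p = 0.00112), as was cox4i2. The strip plot of all lists shows these changes side by side. Of the 241 named genes called higher, 77 belong to the mitosis or replication lists.

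**Figure D3:**
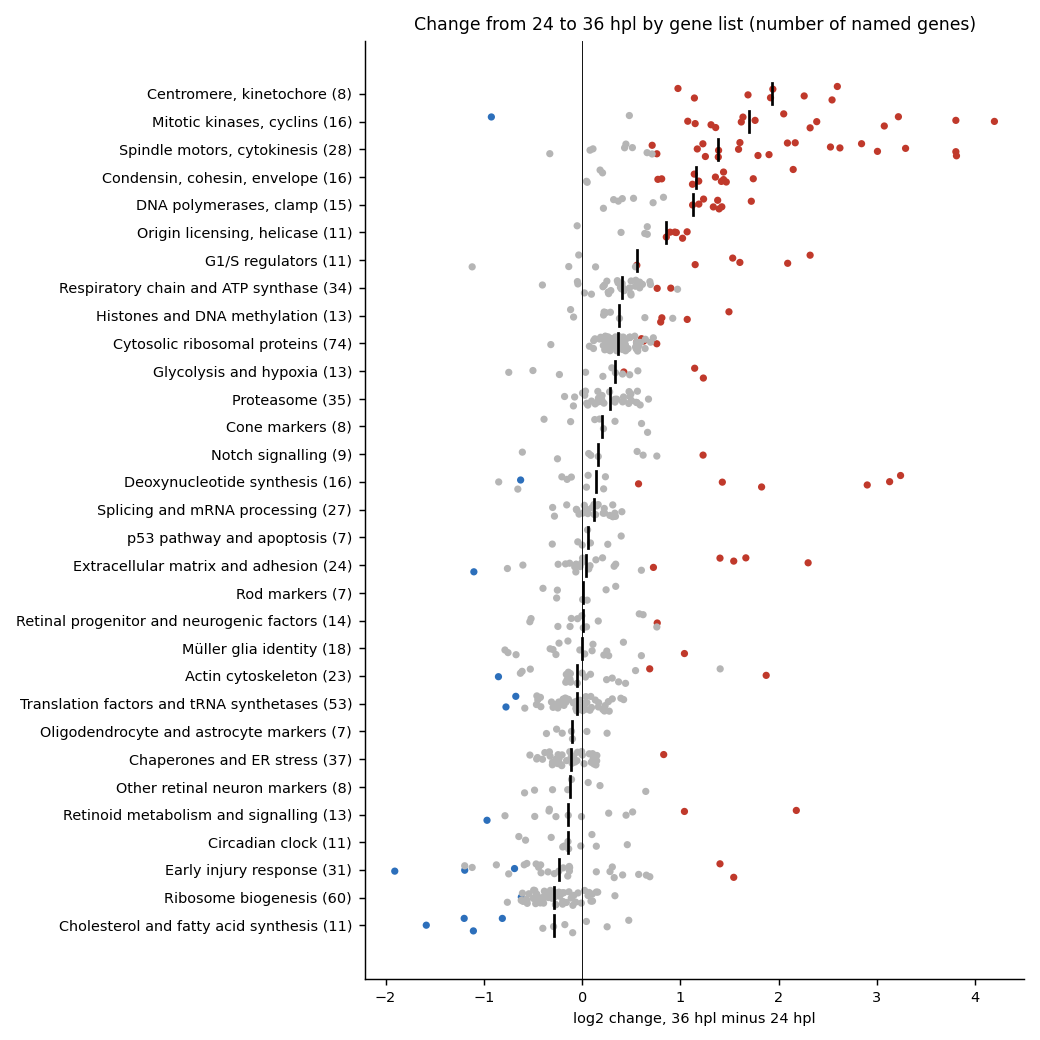
Log2 change from 24 to 36 hpl for the named genes of each list with at least 7 of them, ordered by the list median (black bar). Red points were called higher, blue points lower and grey points were not called at an adjusted p under 0.05. The kinetochore list has the highest median, 1.93, and the cholesterol list the lowest, -0.29.

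The falls were smaller than the rises. The largest was that of the growth factor gene fgf10a, a ligand of Fgf receptors, which read 6.40, 6.93 and 7.29 at 24 hpl and 4.43, 3.74 and 4.87 at 36 hpl (-2.53 ± 0.29, adjusted p = 4.27e-05). Its highest group mean was at 24 hpl, and the mean at 36 hpl, 4.35, was below the unlesioned mean of 5.02. The next was ctgf, a matricellular gene of the injury response, from 7.08, 8.41 and 8.04 to 5.42, 5.52 and 6.88 (-1.91 ± 0.42, adjusted p = 0.0152). It continued a fall of 2.39 from 16 to 24 hpl, from a mean of 10.23, and stayed above the unlesioned mean of 3.91. The call of ctgf was lost without replicate 2 at 24 hpl or replicate 1 or 2 at 36 hpl, with an adjusted p up to 0.0937.

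Of 11 named genes for cholesterol and fatty acid synthesis 4 were called lower, all of them in the sterol branch. None was higher, also at an unadjusted p under 0.05 in limma. Among all named genes 4.55% were called lower and 10.3% higher. The synthase hmgcs1, an early enzyme of the pathway, read 9.75, 10.13 and 9.89 and then 8.45, 8.30 and 8.26, a 3.0-fold fall (-1.59 ± 0.21, adjusted p = 0.00025) with tight and separate groups. The later enzymes msmo1 and cyp51, which demethylate sterols, changed by -1.20 ± 0.23 (adjusted p = 0.00514) and -1.11 ± 0.29 (adjusted p = 0.0392), and the prenyl diphosphate synthase fdps by -0.81 ± 0.22 (adjusted p = 0.0403). At 36 hpl the means of hmgcs1, msmo1 and cyp51 were 8.34, 5.04 and 4.89, against 10.53, 7.29 and 7.28 in unlesioned glia. With hybridisation-control scaling 2 of the 11 genes were called lower. The call of fdps was lost with that scaling (adjusted p = 0.202) and without any 1 of the 6 arrays. That of cyp51 was lost with that scaling too, and without replicate 1 or 2 at 24 hpl or replicate 2 or 3 at 36 hpl (adjusted p up to 0.197).

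Other genes among the 12 largest falls had various roles. The phosphatase dusp5, which switches off Erk, read 6.59, 6.39 and 6.67 and then 5.64, 4.72 and 5.71 (-1.19 ± 0.23, adjusted p = 0.00539). The inhibitor of NF-kappaB nfkbiaa changed by -1.13 ± 0.22 (adjusted p = 0.00763), the inositol trisphosphate kinase itpkcb by -1.13 ± 0.16 (adjusted p = 0.000336) and the membrane-bound transcription factor creb3l3 by -1.37 ± 0.22 (adjusted p = 0.00146). The groups did not overlap for any of these 4. The remaining largest falls were tcima, mafaa and the collagen col15a1, at -1.36, -1.13 and -1.1, and the call of col15a1 was lost without any 1 array except replicate 3 at 36 hpl (adjusted p up to 0.138).

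**Figure D4:**
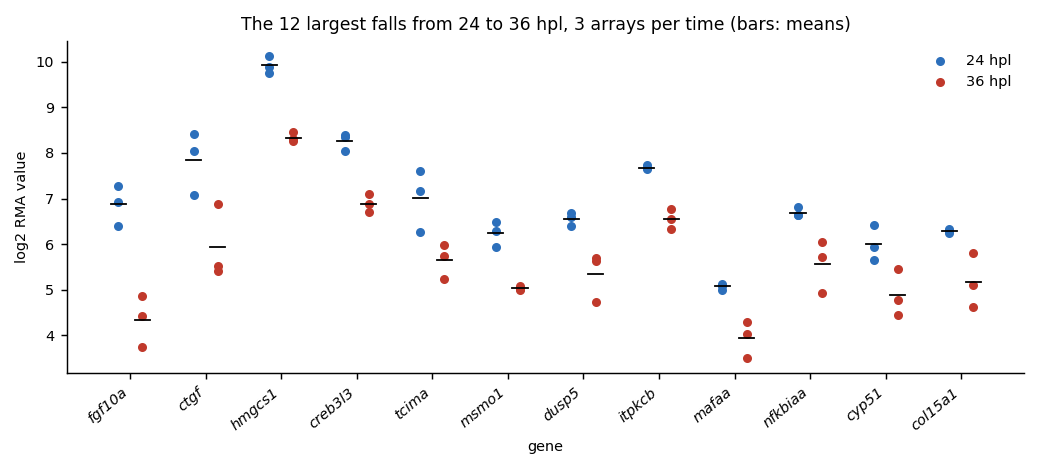
Log2 RMA values of the 12 largest falls by the naming rule, with the 3 arrays at 24 hpl in blue and the 3 at 36 hpl in red, and bars at the group means. The groups do not overlap for any gene, as the rule required, and the gap is widest for fgf10a.

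Of 31 early injury genes 2 were called higher and 3 lower (10.3% and 4.55% of named genes were), and 12 were lower at an unadjusted p under 0.05. The list's median change was -0.24, 15 of the 31 lay wholly below their values at 24 hpl, as did 18.9% of named genes, and 7 were called lower when quantile normalisation was applied again. Of 14 progenitor and neurogenic factors sox11b was higher (0.76 ± 0.19, adjusted p = 0.0307), a call that was lost without replicate 2 or 3 at 24 hpl or replicate 1 or 2 at 36 hpl. The proneural factor ascl1a read 8.99, 9.21 and 8.86 at 24 hpl and 9.76, 9.61 and 9.44 at 36 hpl; it did not pass the test (0.58 ± 0.22, adjusted p = 0.154), though the groups did not overlap. It had risen by 1.28 in the preceding step (adjusted p = 0.015). The metalloprotease mmp9 read 11.47, 11.70 and 11.72 and then 11.71, 11.35 and 11.45 (-0.13 ± 0.49, adjusted p = 0.915), against 3.86 in unlesioned glia. The transcription factor stat3 and its feedback inhibitors socs3a and socs3b changed by -0.28 ± 0.24, -0.19 ± 0.24 and -0.42 ± 0.24, none of which passed. The progenitor factor sox2 (-0.25 ± 0.14) and the mitochondrial chaperone hspd1 (-0.07 ± 0.18) did not pass either.

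In the Notch list 1 of 9 named genes was called higher, as were 10.3% of all named genes and 3.11% of all probe sets. That gene was the ligand dlc (deltaC). It read 3.48, 3.42 and 3.42 at 24 hpl and 4.50, 4.79 and 4.73 at 36 hpl (1.23 ± 0.11, adjusted p = 4.16e-06), in tight groups without overlap. The values at 24 hpl and that of replicate 1 at 36 hpl lay below the mean array median at 24 hpl, 4.57. They are not shown to exceed background. The other Delta ligand named, dld, read 6.36, 6.1 and 6.01 and then 7.03, 6.60 and 6.51 without passing (0.56 ± 0.23, adjusted p = 0.177), after a rise of 1.40 in the preceding step (adjusted p = 0.01).

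Of 18 Müller glia identity genes 1 was called higher and none lower in limma (2 and 4 at an unadjusted p under 0.05), where 10.3% and 4.55% of named genes were. When quantile normalisation was applied again 2 were called lower, glulb and cav1. These were called in 5 and 3 of 15 alternative fits, with limma adjusted p from 0.025 to 0.243 for glulb and from 0.0242 to 0.311 for cav1. At 24 hpl 13 of the 18 were already called below 0 hpl, as were 28.6% of named genes and 14.2% of all probe sets, and at 36 hpl 14 were, as were 31.3% and 26.6%. Glutamine synthetase, glula, which detoxifies glutamate, read 10.91, 11.09 and 10.94 and then 10.77, 10.39 and 10.80 (-0.33 ± 0.15, adjusted p = 0.25), and the retinoid carrier rlbp1a read 9.63, 9.27 and 8.96 and then 9.75, 9.44 and 9.48 (0.27 ± 0.17, adjusted p = 0.405). Both are defining markers of the labelled cell type and were bright on all 6 arrays, and the groups overlapped for rlbp1a but not for glula. The gene that rose was cyp26a1, which breaks down retinoic acid, from 7.53, 7.77 and 7.58 to 8.99, 8.17 and 8.84 (1.04 ± 0.22, adjusted p = 0.0131), still below its unlesioned mean of 10.60. Its call was lost without replicate 1 at 24 hpl or replicate 1 at 36 hpl, with an adjusted p up to 0.0562. In the retinoid list the retinoic acid carrier crabp2a also rose, 4.53-fold (2.18 ± 0.34, adjusted p = 0.00109), from 5.18, 5.23 and 5.56 to 7.96, 7.78 and 6.77, and the retinol dehydrogenase rdh10b fell (-0.97 ± 0.23, adjusted p = 0.0209), a call lost without replicate 2 or 3 at 24 hpl or replicate 1 or 2 at 36 hpl.

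Of 13 glycolysis and hypoxia genes 3 were called higher and none lower in limma (5 and 1 at an unadjusted p under 0.05), and of 34 respiratory chain genes 2 were higher. Among all named genes 10.3% were called higher and 4.55% lower. The cytochrome oxidase subunit cox4i2 fell from a mean of 10.39 at 0 hpl to 8.10 at 24 hpl and then read 8.86 at 36 hpl (0.76 ± 0.18, adjusted p = 0.0191). The glycolytic enzyme tpi1b went from 10.80 to 9.68 and then 10.1 (0.42 ± 0.11, adjusted p = 0.0435), and the matrix protein sparc from 8.98 to 7.07 and then 7.67, the last without passing (0.60 ± 0.18, adjusted p = 0.0631). In the step from 16 to 24 hpl the same 3 genes were called lower, by 1.0, 0.55 and 1.02 log2 units, in a comparison that shares the arrays at 24 hpl. The prolyl hydroxylase egln3, a sensor of oxygen, read 9.19, 7.97 and 9.22 and then 9.96, 9.91 and 10.21 (1.23 ± 0.28, adjusted p = 0.0164). The calls of cox4i2, tpi1b and egln3 were all lost without replicate 2 at 24 hpl, and those of cox4i2 and tpi1b without replicate 1 at 24 hpl or replicate 1 or 2 at 36 hpl. That of tpi1b was also lost without replicate 3 of either time and that of egln3 without replicate 3 at 36 hpl (adjusted p up to 0.101, 0.166 and 0.0586).

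Of 24 matrix and adhesion genes 5 were called higher and 1 lower, where 10.3% and 4.55% of named genes were. The proteoglycan decorin, dcn, read 4.17, 4.1 and 3.65 and then 6.86, 6.2 and 5.76 (2.30 ± 0.25, adjusted p = 2.02e-05), and the protease inhibitor timp2a read 4.62, 4.27 and 4.66 and then 6.22, 6.33 and 6.00 (1.67 ± 0.18, adjusted p = 1.83e-05). The metalloproteases mmp2 and mmp14b, with which Timp2 interacts in mammals, were higher by 1.40 ± 0.29 (adjusted p = 0.0111) and 1.54 ± 0.40 (adjusted p = 0.0339). The call of mmp14b was lost without replicate 2 at 24 hpl or replicate 2 or 3 at 36 hpl (adjusted p up to 0.173). In the actin list the thymosin tmsb, a binder of actin monomers, rose 3.66-fold (1.87 ± 0.21, adjusted p = 3.41e-05) after 1.72 in the preceding step. None of 7 p53 pathway genes and none of 11 clock genes was called in limma (0 and 2, the latter lower, at an unadjusted p under 0.05), the times being 12 h apart.

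Of the markers of other cells the sort could hold, 1 was called, a globin gene. None of 7 rod, 8 cone, 8 other neuron, 7 oligodendrocyte and astrocyte, 3 endothelial and mural and 2 lens genes was called in limma, and 0, 0, 3, 0, 1 and 1 of them passed an unadjusted p under 0.05. Among all named genes 10.3% were called higher and 4.55% lower, and among all probe sets 3.11% and 2.03%. With such shares, the lack of calls in lists this short does not show that these markers held steady. The mean of the rod list spanned 6.25 to 6.59 at 24 hpl and 6.08 to 6.77 at 36 hpl, and that of the cone list 4.45 to 4.82 and 4.55 to 5.13, so both overlapped. Of 2 red blood cell genes the globin hbae3 was called lower (-0.76 ± 0.21, adjusted p = 0.0497), at a level below the array median, and its call was lost without any 1 array except replicate 3 at 24 hpl. The other red blood cell gene, cahz, was not called. It had also been planned as a Müller glia marker, so it does not mark red blood cells alone. The microglia list and the pigment epithelium list each had 1 named gene, arhgdig and rpe65a, and neither was called in limma. At an unadjusted p under 0.05 arhgdig was lower (-0.88) and rpe65a was not. For arhgdig the arrays at 36 hpl lay wholly below those at 24 hpl, with both group means below the array median. The symbol arhgdig was not checked against probe sequences, so this gene is not shown to mark microglia.

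The difference between this step and the preceding one was tested directly. The change from 24 to 36 hpl exceeded that from 16 to 24 hpl for 98 probe sets (0.632%) and fell short of it for 33 (0.213%), with 8 h in the earlier step and 12 h in the later. Of the 71 mitosis genes 29 were among those higher and none among those lower in limma (1 lower at an unadjusted p under 0.05), where 3.13% of named genes were higher and 0.515% lower. Of these 71 genes, 54 owe their name to 36 hpl alone, which favours a larger later step. Of the 42 replication genes 4 were higher (tyms, rrm2, dut and fen1) and 1 lower (orc6). By list, 10 of 16 kinase and cyclin genes, all 4 checkpoint genes, 4 of 8 kinetochore genes, 10 of 28 spindle genes and 2 of 16 condensation and envelope genes differed. The higher count was 49 without replicate 1 and 48 without replicate 2 at 24 hpl. The lower count was 4, 3 and 80 without replicate 1, 2 or 3 at 24 hpl, 14 without replicate 2 at 36 hpl, and 18, 10 and 14 without replicate 1, 2 or 3 at 16 hpl.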

How the data were processed

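Amplified RNA of sorted cells was measured on Affymetrix zebrafish arrays, with 1 array for each biological replicate. The authors deposited log2 values made by RMA, per the submitters' processing notes, and its implementation is not given in the sources used here. Affymetrix controls (115 probe sets) were dropped, and dim ones were kept. All 15 arrays entered one linear model with a mean for each time (limma 3.58.1, lmFit and eBayes, R 4.3.3), and p-values were Benjamini-Hochberg adjusted over 15502 probe sets. Precision is set by the 3 arrays per time. Symbols were taken from a table the authors deposited (3164 probe sets, 2511 with 1 symbol), updated with RefSeq synonyms for 976 by name and not by probe sequence, and its p-values were not used. Where several probe sets shared a symbol, the brightest on average stood for the gene.

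Replicate numbers were not taken to pair arrays: deviations of same-numbered arrays at 24 and 36 hpl correlated at -0.01, -0.17 and 0.19. The step and the lists were chosen with earlier results of these data known. Named genes were the 12 largest rises and 12 largest falls with non-overlapping groups, the 6 smallest adjusted p of each list, the 6 largest in each direction of the difference between steps, and a panel of regeneration genes, of which ccnb2, mki67 and gfap are not named here. The code was tested on simulated data. Alternatives changed the arrays fitted, scaling, dim filter, variance model, replicate block, threshold and probe set rule, and each array was left out in turn.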

Additional observations from a re-analysis of the deposited data

Results flagged for a closer look

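The results in this section are differences between 2 steps of the time course, the change from 24 to 36 hpl minus the change from 16 to 24 hpl, at a limma adjusted p under 0.05. They share the arrays at 24 hpl, so a low or high reading there enters both steps with opposite sign. In all 98 probe sets were higher and 33 lower. The largest positive differences by the naming rule were ccnf at 4.37, rtkn2 at 3.81, tacc3 at 3.81, plk1 at 3.67, aspm at 3.43 and ttk at 3.25 log2 units. Each of these 6 changed by between -0.17 and 0.13 in the earlier step. The largest negative differences were fgf10a at -3.61, orc6 at -2.22, ankha at -2.13, mafaa at -1.83, hoxb8a at -1.75 and bmp15 at -1.68.

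The gene orc6 changed by 2.17 in the earlier step and by -0.05 in the later. The other 5 read lower at 36 than at 24 hpl after a higher mean at 24 than at 16 hpl, and the fall of ankha did not pass on its own (adjusted p = 0.134). Among the replication genes the differences were 2.28 for tyms, 2.26 for rrm2, 2.52 for dut and 1.45 for fen1. The Notch ligand dlc differed by 1.11. In the matrix list dcn, timp2a and sparc differed by 2.50, 1.41 and 1.63, and among metabolic genes cox4i2, tpi1b and pygmb by 1.76, 0.97 and 2.02. The genes arl4aa and ephb2b differed by 1.93 and 2.51. Like pygmb, they were chosen after their values were seen.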

How the results depend on the processing

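The step's counts of 482 higher and 315 lower probe sets became 255 and 54 at an adjusted p under 0.01 and 231 and 46 at 2-fold or more; the lower count was 191 with the arrays at 24 and 36 hpl alone, 53 with hybridisation-control scaling and 542 with array weights. Leaving out 1 array gave 278 to 457 higher and 58 to 375 lower. The counts for the difference between steps (98 and 33) became 322 and 378 with array weights and 53 and 5 at an adjusted p under 0.01, and the lower count was 18 with lesioned arrays only, 7 with hybridisation-control scaling and 54 with the arrays at 16, 24 and 36 hpl alone. Leaving out 1 array gave 48 to 111 higher and 3 to 80 lower. Mitosis genes called higher stayed between 52 and 61 under all alternatives, 52 to 58 with 1 array left out. Replication genes numbered 13 at an adjusted p under 0.01 and 14 to 24 with 1 array left out. With the replicate block the step gave 446 and 233 and the difference 84 and 14. No named gene changed direction while called. All 12 of the largest rises kept their call in each of 15 alternative fits, as did 9 of the 12 largest falls, the exceptions being ctgf, cyp51 and col15a1. Of 114 named genes called in the step, 76 kept the call with each of 6 arrays left out in turn. The causes were not tested.

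Arrays at 36 hpl had a mean hybridisation-control value 0.20 lower than those at 24 hpl (two-sided exact permutation p = 0.1, the smallest possible with 3 against 3), and array medians differed by 0.04 (exact p = 0.9). Genes absent from the authors' table are not named, and levels below the array median have no detection call.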

Other observations

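Outside the lists described above, several other genes changed, and they were chosen here after their values were seen. The glycogen phosphorylase genes pygmb and pygl, whose enzymes release glucose from glycogen stores, were both higher at 36 hpl. Each was read from the brightest of its probe sets, 2 for pygmb and 3 for pygl, and the others are not described here. The gene pygmb read 6.33, 6.19 and 6.94 at 24 hpl and 7.74, 7.56 and 7.95 at 36 hpl (1.26 ± 0.20, adjusted p = 0.000983), and pygl read 7.63, 7.72 and 7.86 and then 8.66, 8.71 and 8.73 (0.96 ± 0.19, adjusted p = 0.00675). Both remained below their unlesioned means of 8.61 and 9.89, and neither gene's groups overlapped. The brain aromatase cyp19a1b, an estrogen-making enzyme of radial glia in fish, was higher as well (1.9 ± 0.46, adjusted p = 0.0269), but this call was lost without any 1 array except replicate 3 at 24 hpl (adjusted p up to 0.153).

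The DNA methyltransferase gene dnmt3ba read 4.82, 4.96 and 4.82 and then 6.40, 6.16 and 5.65 (1.2 ± 0.17, adjusted p = 0.000301), and dnmt3bb.3 rose by 0.97 ± 0.18 (adjusted p = 0.00456). Both encode enzymes that add methyl groups to unmethylated DNA. The Eph receptor gene ephb2b, for contact signals between cells, read 5.17, 5.2 and 4.80 and then 7.48, 7.55 and 7.71 (2.53 ± 0.15, adjusted p = 5.06e-08). Its means were 5.04, 4.54 and 5.04 at 0, 8 and 16 hpl, near those of 24 hpl. The small GTPase gene arl4aa read 6.03, 5.84 and 6.14 and then 8.03, 8.15 and 7.60, against a mean of 7.72 at 0 hpl (1.93 ± 0.18, adjusted p = 3.96e-06). Genes chosen in this way also fell, with nap1l4a at -1.09 ± 0.16 (adjusted p = 0.000461), lmo4a at -1.04 ± 0.22 (0.0123) and uchl1 at -1.09 ± 0.25 (0.0178). The calls of lmo4a and uchl1 were lost with hybridisation-control scaling and without replicate 2 of either time, that of uchl1 also without replicate 3 at 24 hpl.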
